A study of Mus musculus with 6 samples.

Results

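The genes described here are 10 receptors, nuclear proto-oncogenes and regulators of early blood progenitors that GATA-1, the master transcription factor of red cell formation, turns down as erythroid cells mature: Kit, Cd34, Cd44, Myc, Mycn, Myb, Hhex, Runx1, Meis1 and Bmi1. They were taken as all array probes whose gene name is one of these symbols, which gave 16 probes of 55681. Of these, 12 probes, of 31853 kept in all, had a signal well above background on 3 or more arrays of 6. The 12 probes covered 8 of the 10 genes, among 22133 genes tested, while both Cd34 probes and the Mycn probe were well above background on 0 of 6 arrays.

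The cells were G1E-ER-GATA-1, a mouse erythroid progenitor line without GATA-1 of its own that carries GATA-1 joined to the oestrogen receptor's ligand-binding domain, so that oestradiol switches the factor on. The knockdown group (3 samples) received siRNA against Mi2β, the ATPase of the NuRD chromatin complex that the Chd4 gene encodes, and the control group (3 samples) received non-targeting siRNA. Both groups received siRNA by nucleofection at 0 h and 24 h and β-estradiol from 24 h, and were harvested at 48 h, so every sample had GATA-1 switched on for 24 h and no sample without oestradiol was part of the comparison. Both groups grew with erythropoietin and with medium conditioned by cells that make Kit ligand. The model is 1 cell line with 1 siRNA condition against another. Nothing in the labels says whether the samples within a group were grown as separate cultures, so each p-value reflects the spread among these samples alone, which could be technical. In bulk RNA, fewer cells of a type and less RNA per cell cannot be told apart.

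Kit is the receptor tyrosine kinase for stem cell factor, and its signalling keeps erythroid progenitors alive and dividing before it is shut off at terminal maturation. CD34 and CD44 are surface glycoproteins of progenitors, the second a receptor for hyaluronan whose amount falls as erythroblasts mature. Myc, Mycn and Myb are transcription factors that drive proliferation. Hhex, Runx1 and Meis1 are transcription factors needed for early blood development, and Bmi1 is a subunit of the Polycomb repressive complex PRC1 that holds the Cdkn2a cell cycle inhibitor locus silent in stem cells.

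The 2 genes past the threshold were Cd44, which rose, and Runx1, which fell, and the sequences that belong to these genes are shown first. The design assigns Cd44 4 probes, which lie along its transcript. The 2 shown here lie nearest the start of the gene and are the dim ones of the 4, so they show what sequence the dim Cd44 signals below read. Both are given 5′ to 3′ on the minus strand of mouse build mm9, the first at chr2:102677971-102678030 and the second at chr2:102672645-102672704.
Cd44 probe at transcript position 1777: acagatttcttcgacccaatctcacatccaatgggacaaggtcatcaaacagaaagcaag
Cd44 probe at transcript position 1965: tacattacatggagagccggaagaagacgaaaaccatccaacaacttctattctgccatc
The other Cd44 probes, at positions 2614 and 5494, lie at chr2:102654278-102654337 and chr2:102651398-102651457 of mm9, and the Runx1 probes, at positions 1452 and 4166, at chr16:92605785-92605844 and chr16:92604413-92604472, all on the minus strand. The exon or UTR under each probe is not given, because no mm9 genome annotation was used here.

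The promoter windows below come from RefSeq (GRCm38.p6, 250 bases before to 50 after each start), are given 5′ to 3′ on the minus strand, and belong to the 2 genes past the threshold. Capitals mark the letters searched on both strands: a GATA motif (AGATAA or its variant TGATAA, and AGATAG or its variant TGATAG), a Runx motif (TGTGGT) and an E-box (CACGTG), which do not overlap each other. The Cd44 window is chr2:102901616-102901915, the distal Runx1 window is chr16:92826025-92826324 and the proximal Runx1 window is chr16:92697280-92697579.
Cd44 promoter: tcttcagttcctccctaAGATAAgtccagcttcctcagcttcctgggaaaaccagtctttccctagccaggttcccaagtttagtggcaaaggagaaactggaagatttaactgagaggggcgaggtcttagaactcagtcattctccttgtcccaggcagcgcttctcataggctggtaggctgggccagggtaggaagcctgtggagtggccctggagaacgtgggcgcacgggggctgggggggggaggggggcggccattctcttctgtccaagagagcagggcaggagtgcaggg
Runx1 distal promoter: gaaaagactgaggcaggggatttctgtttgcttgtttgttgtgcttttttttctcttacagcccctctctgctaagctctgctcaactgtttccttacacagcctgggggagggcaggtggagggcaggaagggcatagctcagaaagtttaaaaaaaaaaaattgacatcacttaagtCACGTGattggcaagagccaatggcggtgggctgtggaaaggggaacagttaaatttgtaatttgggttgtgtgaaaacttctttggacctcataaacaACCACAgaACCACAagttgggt
Runx1 proximal promoter: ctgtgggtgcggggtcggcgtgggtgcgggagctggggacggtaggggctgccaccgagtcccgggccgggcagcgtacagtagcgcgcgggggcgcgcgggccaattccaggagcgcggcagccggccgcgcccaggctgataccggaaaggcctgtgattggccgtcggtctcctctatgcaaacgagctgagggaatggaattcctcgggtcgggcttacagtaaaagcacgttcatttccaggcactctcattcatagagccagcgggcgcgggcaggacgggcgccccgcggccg
The Cd44 window held 1 GATA match, at -233 relative to the start. The distal Runx1 window held 2 Runx matches, both after the start, and 1 E-box match, while the proximal window held none of the motifs. Of the 11 windows that RefSeq gives for 9 of the 10 genes, 2 held a GATA match (Cd44 and Cd34), 2 a Runx match (distal Runx1 and Meis1) and 2 an E-box (distal Runx1 and Bmi1). Over all 32851 windows of the same length, 29.8% held a GATA match, 16.8% a Runx match and 7.15% an E-box. A match is a description of the letters and not a bound site. The array design lists the same 4 RefSeq transcripts for both Runx1 probes, so the probes do not separate those transcripts. For Cd44 it lists 3 RefSeq transcripts at position 1777 and 4 at positions 1965, 2614 and 5494. The Cd44 probes therefore need not all read the same transcripts.

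RNA was hybridised to 1-colour Agilent arrays, 1 sample an array, and the processed signal of a probe was put on a log2 scale and set against the 75th percentile of its array, a value called log2 signal here. The targeted gene Chd4 had a log2 signal of 4.62, 4.60 and 4.54 in the knockdown samples, against 5.93, 6.00 and 5.75 in the control samples. It fell by 1.31 ± 0.10 (SE) on the log2 scale, 2.48-fold lower in the knockdown (limma adjusted p = 0.00161), and passed under each of 17 alternatives. The share of probes well above background was 48.5% to 74.0% in the knockdown arrays and 53.0% to 56.4% in the control arrays, with knockdown replicate 2 the highest and knockdown replicate 3 the lowest. All 6 arrays were on 1 slide and 1 scan. Slide row 1 held replicates 1 and 2 of both groups and slide row 2 held replicate 3 of both. Signals given below are not scaled between arrays, whereas log2 signals are. All 12 erythroid markers examined by their names on the array, among them Klf1 and Epor, were well above background on all 6 arrays, and 11 of them entered the test under the same symbol, since the probe named Hbb-b1 took another symbol when names were updated. No probe of the 10 genes was saturated on any array.

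Cd44 was the member with RNA higher in the knockdown that passed the test, and Runx1 the member that fell. Kit and Myc had higher values, and Meis1 and Bmi1 lower values, on every knockdown array than on every control array without passing the adjusted threshold, and the samples of Myb and Hhex overlapped between the groups. Thus 1 of 8 measured genes rose, where 4.99% of all 22133 genes tested rose, and 1 of 8 fell, where 4.56% of all genes fell (limma, Benjamini-Hochberg adjusted p under 0.05). The knockdown arrays were all above the control arrays for 3 of the 8 genes, against 12.7% of all genes, and all below them for 3 of 8, against 18.4% of all genes. At an unadjusted p under 0.05, 3 of the 8 were higher in the knockdown, against 10.5% of all genes, and 3 were lower, against 13.4%. The median log2 change was -0.01 over the 8 genes and -0.03 over all genes, and the 8 values lay on both sides of that centre.

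**Figure D1:**
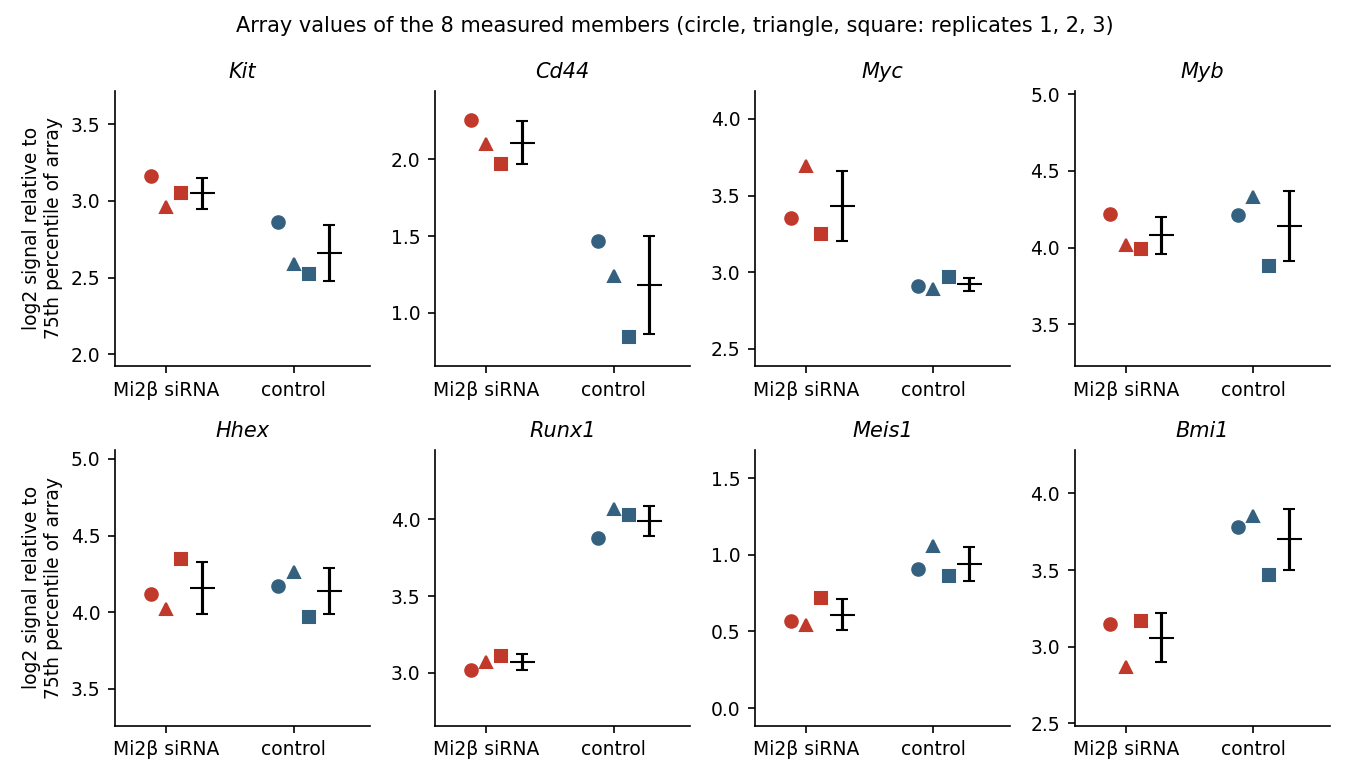
Log2 signal relative to the array's 75th percentile (y axis) of the 8 measured genes on each array, with Mi2β siRNA samples left in red and control samples right in blue, and the mean ± SD (n = 3) beside each group. Each panel covers its own range of values. Kit, Cd44 and Myc show no overlap with the knockdown higher, Runx1, Meis1 and Bmi1 no overlap with the knockdown lower, and Myb and Hhex overlap.

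Cd44, the hyaluronan receptor, was read by 4 probes, and its brightest probe, at position 5494, stands for the gene. The processed signal of that probe was 2120, 1690 and 1590 in knockdown samples 1 to 3, against 1020, 847 and 705 in control samples 1 to 3. The lowest knockdown sample lay well above the highest control sample, so the groups did not overlap. On the log2 scale the mean was 2.11 ± 0.14 in the knockdown and 1.18 ± 0.32 in the control (SD, n = 3 each). Cd44 rose by 0.93 ± 0.18 (SE; 95% interval 0.48 to 1.38) on the log2 scale, a 1.90-fold difference with a limma adjusted p of 0.0317. Its change was higher than that of 95.2% of the genes tested.

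The second bright Cd44 probe, at position 2614, also rose. Its signal was 1170, 1060 and 872 in the knockdown, against 531, 513 and 566 in the control, again without overlap. In the fit across probes it rose by 0.79 ± 0.12 (SE) on the log2 scale (limma adjusted p = 0.0153). The upstream probe at position 1777 was dim, at 126, 112 and 57.6 in the knockdown, against 24.7, 18.9 and 55.6 in the control. Knockdown sample 3 and control sample 3 were nearly equal on this probe, and its change of 1.51 ± 0.46 did not pass (limma adjusted p = 0.115). The upstream probe at position 1965 was well above background on 2 knockdown arrays and on 0 control arrays and was not tested. Its signal was 29.0, 26.8 and 13.0 in the knockdown and 12.2, 6.58 and 14.0 in the control, so knockdown sample 3 again lay no higher than control sample 3, unlike on the 2 bright probes. Differences between the changes of the 3 kept probes ranged from -0.14 to 0.72 on the log2 scale and none passed (exact permutation test, two-sided, p = 0.2 to 0.7, adjusted p of 0.5 to 0.7 over 5 probe pairs of Cd44, Runx1 and Bmi1, where the smallest p that 3 against 3 samples allow is 0.1).

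The Cd44 call rested on few samples. It held with the slide row as a block (0.93, limma adjusted p = 0.0198) and was lost with the replicate number as a block (0.93, adjusted p = 0.0542). The difference was 0.83 within slide row 1 (adjusted p = 0.0775, with 2 samples a group) and 1.13 within slide row 2 (1 sample a group, no test). The call was also lost with no detection filter (adjusted p = 0.0931), without control replicate 2 (adjusted p = 0.0944) and without any of knockdown replicates 1, 2 and 3 (adjusted p = 0.13, 0.0914 and 0.0595). The difference kept its sign under each of the 17 alternatives, from 0.70 to 1.08.

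Kit, the stem cell factor receptor, was read by 1 probe printed in 2 spots, at chr5:76052394-76052453 of mm9 on the plus strand. Its signal was 3950, 3060 and 3360 in the knockdown, against 2680, 2170 and 2260 in the control. Every knockdown sample lay above every control sample, with the gap between knockdown sample 2 and control sample 1 the narrowest. Kit averaged a log2 signal of 3.05 ± 0.10 in the knockdown and 2.66 ± 0.18 in the control (SD, n = 3 each). The difference of 0.40 ± 0.12 (SE; 95% interval 0.09 to 0.70) had an unadjusted p of 0.0193 and a limma adjusted p of 0.117, which did not pass. It was 0.33 within slide row 1 and 0.53 within slide row 2, and it passed in 3 of 17 alternatives.

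Cd34, the sialomucin used to sort blood progenitors, was not measurable in either group on its probes at chr1:196785280-196785339 and chr1:196787392-196787451 of mm9 (plus strand). Its probe at position 963 had a signal of 6.03, 13.9 and 13.9 in the knockdown and 3.23, 8.47 and 3.49 in the control, and its probe at position 2370 had 2.64, 8.75 and 5.65 in the knockdown and 2.84, 2.79 and 8.92 in the control. No array put either probe well above background, where the lowest signal of any probe called well above background was 9.24 to 20.3 across the 6 arrays. No difference in Cd34 can be read at this signal.

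Myc, the proto-oncogene whose fall accompanies the last divisions of erythroid cells, was read by 1 probe in 2 spots, at chr15:61821417-61821476 of mm9 on the plus strand. Its signal was 4530, 5070 and 3850 in the knockdown, against 2780, 2660 and 3080 in the control. The groups did not overlap, and the control samples lay closer together than the knockdown samples. Myc averaged a log2 signal of 3.43 ± 0.23 in the knockdown and 2.92 ± 0.04 in the control (SD, n = 3 each). The difference of 0.51 ± 0.14 (SE; 95% interval 0.17 to 0.84) had an unadjusted p of 0.00998 and a limma adjusted p of 0.0777, which did not pass. Within slide row 1 it was 0.62 and within slide row 2 it was 0.28, and it passed in 4 of 17 alternatives.

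Mycn, the paralogue of Myc, was read at chr12:12943193-12943252 of mm9 (minus strand) and had signals of 2.90, 2.91 and 4.81 in the knockdown and 3.17, 3.04 and 3.44 in the control. Its probe was well above background on none of the 6 arrays and was not tested.

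Myb, the transcription factor that keeps erythroid progenitors cycling, was read at chr10:20844736-20844795 of mm9 (minus strand) and had a signal of 8290, 6410 and 6450 in the knockdown and 6850, 7230 and 5790 in the control. The groups overlapped, and the spread among samples was larger than the gap between group means. Myb averaged a log2 signal of 4.08 ± 0.12 in the knockdown and 4.14 ± 0.23 in the control (SD, n = 3 each). The difference was -0.06 with a 95% interval of -0.42 to 0.30 (limma adjusted p = 0.854), which leaves room for a change of that size in either direction, and it was -0.15 within slide row 1 and 0.11 within slide row 2.

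Runx1, a DNA-binding factor needed for the first blood stem cells and for megakaryocytes, was the member that fell, on both of its probes. The probe at position 1452 had a signal of 3590, 3310 and 3500 in the knockdown, against 5450, 6030 and 6420 in the control. Both groups were tight and far apart. The mean log2 signal was 3.07 ± 0.05 in the knockdown and 3.99 ± 0.10 in the control (SD, n = 3 each). Runx1 fell by 0.93 ± 0.10 (SE; 95% interval of the change -1.16 to -0.69) on the log2 scale, 1.90-fold lower in the knockdown (limma adjusted p = 0.00388), a lower change than all but 1.5% of the genes tested.

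The Runx1 probe at position 4166 had a signal of 832, 764 and 889 in the knockdown, against 1300, 1260 and 1310 in the control. In the fit across probes the change was -0.79 ± 0.10 (SE) here (limma adjusted p = 0.00996) and -0.93 ± 0.10 at position 1452 (limma adjusted p = 0.00516). Thus 2 of the 12 kept probes, both of Cd44, rose, where 4.31% of all 31853 probes rose, and 2, both of Runx1, fell, where 3.88% of all probes fell. The Runx1 change was -0.93 within slide row 1 and -0.92 within slide row 2, and -0.93 with the row as a block (adjusted p = 0.0107). With 2 samples a group in slide row 1 alone the adjusted p was 0.0562.

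**Figure D2:**
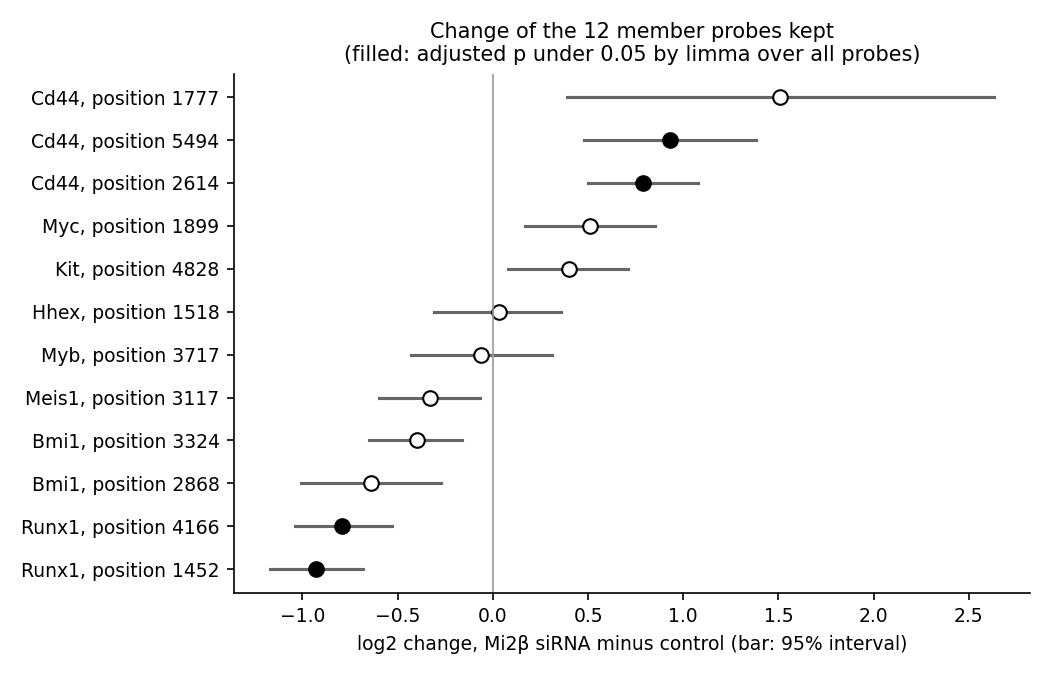
Log2 change, Mi2β siRNA minus control (x axis), of the 12 kept probes (rows, with the position in the transcript), from the fit across all probes. Bars are 95% intervals and filled points have a limma adjusted p under 0.05, which 2 Cd44 probes and 2 Runx1 probes reached. The dim Cd44 probe at position 1777 has the widest interval.

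Meis1, a homeodomain factor of stem cells that pairs with other homeodomain proteins, was read at chr11:18780695-18780754 of mm9 (minus strand) and had a signal of 660, 571 and 668 in the knockdown, against 697, 750 and 711 in the control. The groups did not overlap, though knockdown sample 3 lay close to the control samples. The mean log2 signal was 0.61 ± 0.10 in the knockdown and 0.94 ± 0.11 in the control (SD, n = 3 each), a difference of -0.33 with a 95% interval of -0.59 to -0.07 that did not pass (limma adjusted p = 0.119). It was -0.43 within slide row 1 and -0.14 within slide row 2.

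Hhex, a homeodomain factor of early blood and endothelial cells, was read at chr19:37514969-37515028 of mm9 (plus strand) and had a signal of 7690, 6380 and 8270 in the knockdown and 6670, 6910 and 6160 in the control. The samples of the groups were interleaved. The mean log2 signal was 4.16 ± 0.17 in the knockdown and 4.14 ± 0.15 in the control (SD, n = 3 each). The difference was 0.03 with a 95% interval of -0.30 to 0.36 (limma adjusted p = 0.935), and it was -0.15 within slide row 1 and 0.38 within slide row 2.

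Bmi1, the PRC1 subunit, was read by 2 probes, both lower on every knockdown array, at chr2:18607531-18607590 and chr2:18607987-18608046 of mm9 (plus strand). The probe at position 2868 had a signal of 3930, 2890 and 3630 in the knockdown, against 5080, 5190 and 4340 in the control, and stands for the gene. The mean log2 signal was 3.06 ± 0.16 in the knockdown and 3.70 ± 0.20 in the control (SD, n = 3 each). The difference of -0.64 ± 0.15 (SE; 95% interval -1.0 to -0.28) had an unadjusted p of 0.00512 and a limma adjusted p of 0.0522, just outside the threshold. The probe at position 3324 had 1180, 1030 and 1020 in the knockdown, against 1220, 1340 and 1290 in the control, a difference of -0.40 ± 0.10 (SE; limma adjusted p = 0.07). The array design lists 1 RefSeq transcript for the probe at position 3324 and 2 for the probe at position 2868. The change at position 2868 was -0.81 within slide row 1 and -0.30 within slide row 2, and the gene passed in 7 of 17 alternatives, among them without control replicate 3 (adjusted p = 0.0434).

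The order of the members by change was Cd44, Myc, Kit, Hhex, Myb, Meis1, Bmi1 and Runx1. The choice of scaling sets where 0 lies in that order. Centring each array on its median instead of its 75th percentile moved the median change of all genes to -0.27, against -0.03 in the values above. With that centring Cd44 stood at 0.70 (adjusted p = 0.463), Runx1 at -1.16 (adjusted p = 0.0519), Kit at 0.16 and Myc at 0.27, and no member passed by limma, while the rest of the data lost calls too (496 genes rose and 335 fell, against 1105 and 1010). Both scalings subtract a constant from each array, so relative to the median of all genes the changes are the same by construction. They were 0.96 for Cd44, 0.54 for Myc, 0.43 for Kit, -0.60 for Bmi1 and -0.89 for Runx1. With quantile normalization, which can differ, they were 1.04 for Cd44, 0.62 for Myc, 0.52 for Kit, -0.51 for Bmi1 and -0.81 for Runx1. Hhex and Myb lay near 0 with either sign over the 17 alternatives, from -0.21 to 0.10 for Hhex and from -0.29 to 0.04 for Myb, and passed in none.

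**Figure D3:**
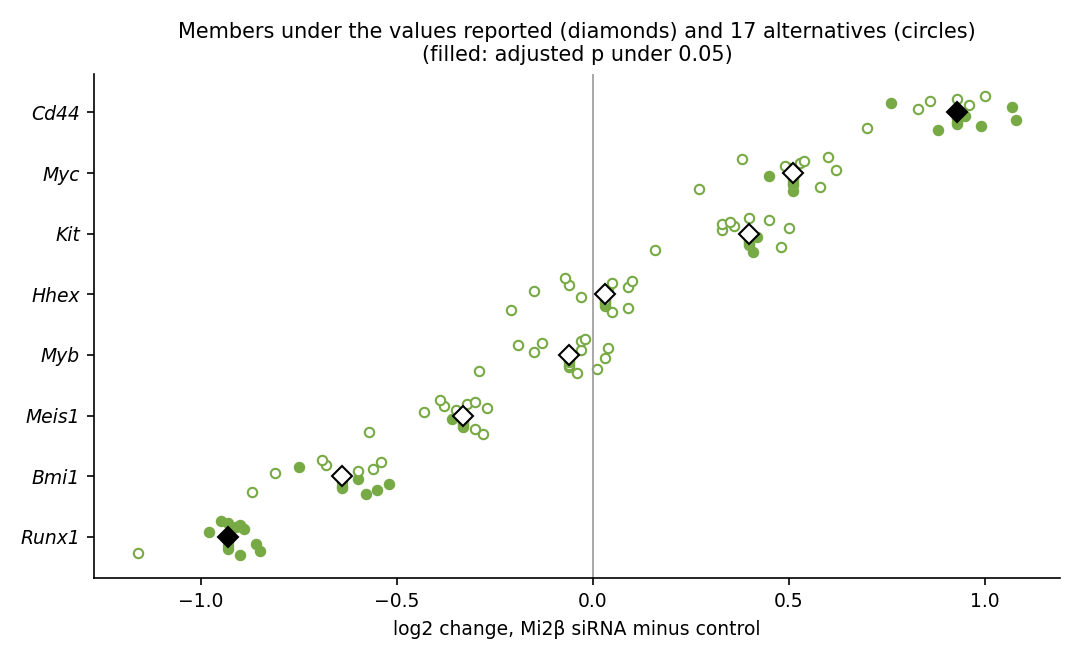
Log2 change, Mi2β siRNA minus control (x axis), of each measured gene as reported (diamonds) and under 17 alternatives (circles); filled symbols have an adjusted p under 0.05. The changes of Cd44, Myc and Kit stay above 0 and those of Meis1, Bmi1 and Runx1 below 0 in all of them, while those of Hhex and Myb lie on both sides.

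The partners and pathways of these genes moved in both directions. Among 11 measured genes of another 12 that GATA-1 is known to turn down, 2 rose and 4 fell, with a median change of -0.49 (limma, adjusted over all genes). Of all genes 4.99% rose and 4.56% fell. Gata2, the GATA factor that GATA-1 displaces in maturing erythroid cells, rose by 1.22 ± 0.10 (SE, adjusted p = 0.00199), with a mean log2 signal of 2.43 in the knockdown and 1.21 in the control. Fli1, an Ets factor of megakaryocytes, fell by 0.93 ± 0.13 (adjusted p = 0.0106), and Ccnd2, a D-type cyclin, fell by 0.65 ± 0.10 (adjusted p = 0.0144). Lyl1, a basic helix-loop-helix factor of stem cells, rose by 0.62 ± 0.10 (adjusted p = 0.0152). Vim and Lmo2 made up the rest of the calls, and the ETS gene Erg was not measurable. With array median scaling none of these genes passed (0 rose and 0 fell, median -0.72, against -0.27 over all genes). With 1 sample left out Gata2 passed each time, whereas the number past the threshold was 1 higher and 1 lower without control replicate 1 or knockdown replicate 2, 1 higher and 0 lower without knockdown replicate 1, and 2 higher and 2 lower without any 1 of the other samples. The median was 0.01 without control replicate 3.

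Of 31 measured genes of Kit signalling, 3 rose and 4 fell, where 4.99% of all genes rose and 4.56% fell, and the median change was -0.10. With array median scaling 0 rose and 1, Dok1, fell (median -0.33, against -0.27 over all genes). Plcg1, a phospholipase that Kit recruits, rose by 1.01 ± 0.10 (SE, limma adjusted p = 0.00364). Dok1, a docking protein that damps signalling of tyrosine kinases, fell by 1.23 ± 0.10 (adjusted p = 0.00184) and passed under each of the 17 alternatives. Stat5a, the transcription factor that cytokine receptors switch on, fell by 0.89 ± 0.11 (adjusted p = 0.007). Socs1, a feedback inhibitor of cytokine signalling, rose by 0.87 ± 0.12 (adjusted p = 0.00934). The kinase genes Jak2 and Fyn fell and the adaptor gene Sh2b3 rose, and the call of Fyn was lost without control replicate 1 or knockdown replicate 1 (adjusted p up to 0.0661) and that of Sh2b3 without any 1 sample but control replicate 2 (adjusted p up to 0.146). Kitl, the ligand's own gene, showed a difference of -0.10 ± 0.22 (adjusted p = 0.833). Its probe was dim, with a mean log2 signal of -4.23 in the knockdown and -4.14 in the control. It was well above background on 2 knockdown and 3 control arrays.

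By calls past the adjusted threshold, the Myc lists had shares near those of all genes, of which 4.99% rose and 4.56% fell. At an unadjusted p under 0.05 by limma, 10.5% of all genes were higher and 13.4% lower. Of 15 measured genes of the network around Myc and its partner Max, 0 rose and 1 fell by limma, against 1 higher and 2 lower at an unadjusted p under 0.05, and the median change was 0.02. The gene that fell was Mlx, a Max-like partner, by 0.51 ± 0.10 (adjusted p = 0.0315), and Max showed a difference of 0.16 ± 0.13 (adjusted p = 0.507). Of 25 measured Myc target genes, 1 rose (Polr1b, an RNA polymerase I subunit, 0.62 ± 0.14, adjusted p = 0.0476) and 1 fell (Ccnd2), with 5 higher and 2 lower at an unadjusted p under 0.05 and a median of 0.18. The calls for Mlx and Polr1b were lost without control replicate 1 or 2 or any 1 knockdown replicate (adjusted p up to 0.125 for Mlx and 0.176 for Polr1b), and that for Polr1b also without control replicate 3. That for Ccnd2 was lost without replicate 1 or 2 of either group (adjusted p up to 0.0703).

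The calls in the short lists below stand beside 4.99% of all genes that rose and 4.56% that fell, and no list was tested as a set against these shares. Among the partners of the other factors, Cbfa2t3, the ETO2 corepressor that works with Runx and Tal1 complexes, fell by 1.09 ± 0.09 (SE, limma adjusted p = 0.00199) and passed under each of the 17 alternatives. It was the 1 call among 6 measured partners and relatives of Runx1, whose median was -0.14, and Cbfb, the subunit that binds Runx1 directly, showed a difference of 0.50 ± 0.17 (adjusted p = 0.14). Of 8 measured partners of Meis1, Pbx2 fell by 0.57 ± 0.09 (adjusted p = 0.018). Of 16 measured genes of the PRC1 group, Pcgf1, a relative of Bmi1 in other PRC1 forms, fell by 0.60 ± 0.12 (adjusted p = 0.0343), Rnf2, the catalytic partner of Bmi1, showed a difference of 0.04 ± 0.10 (adjusted p = 0.876), and Cdkn2a was not measurable. Of 8 measured genes of the Cd34 and Cd44 group, Selplg, a selectin ligand of blood cells, rose by 1.12 ± 0.16 (adjusted p = 0.00986). Of 5 measured partners of Hhex, Pml, the nuclear body protein, fell by 0.71 ± 0.10 (adjusted p = 0.0105). None of 5 measured relatives and partners of Myb passed by limma, with a median of -0.32. At an unadjusted p under 0.05, 0 of them were higher and 3 lower, against 10.5% and 13.4% of all genes. Leaving out knockdown replicate 1 lost the calls of Pbx2, Pcgf1, Selplg and Pml, and control replicate 1 those of Pbx2, Pcgf1 and Pml (adjusted p up to 0.0993 for Pbx2, 0.132 for Pcgf1, 0.0579 for Selplg and 0.0604 for Pml). The calls of Pbx2 and Pcgf1 were also lost without control replicate 2, knockdown replicate 2 or knockdown replicate 3, and that of Pcgf1 without control replicate 3.

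**Figure D4:**
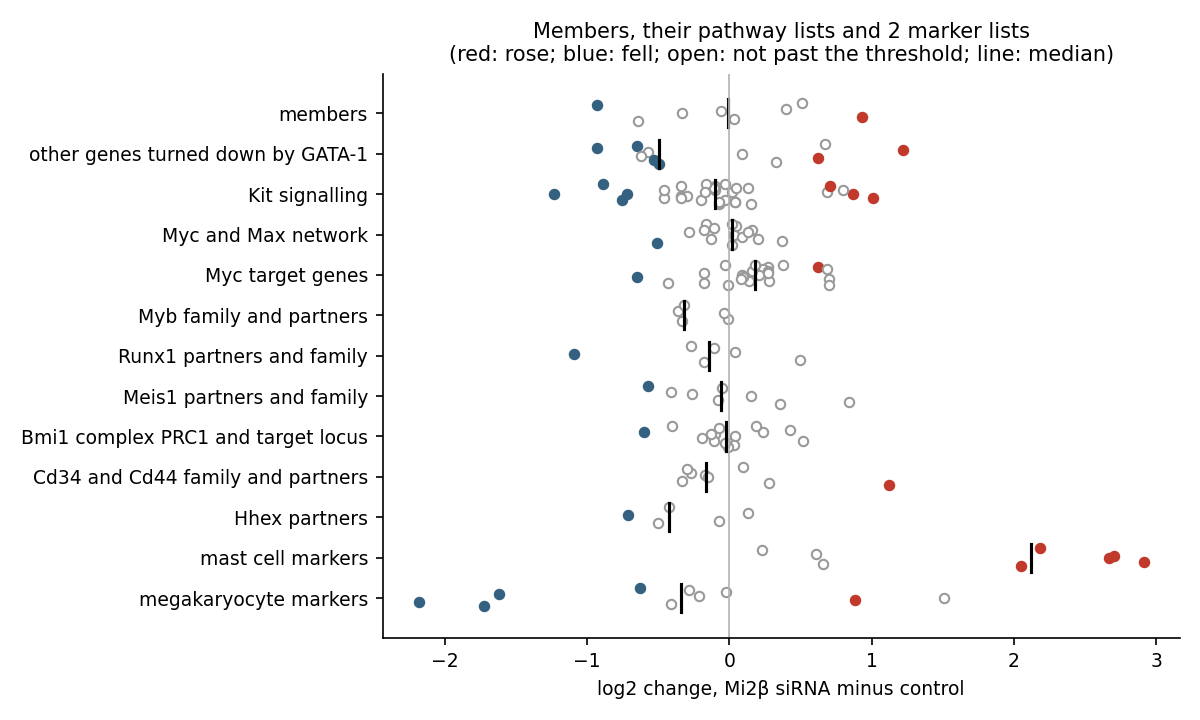
Log2 change, Mi2β siRNA minus control (x axis), of the measured members, of their 10 pathway lists and of mast cell and megakaryocyte markers (rows); each point is a gene, red where it rose, blue where it fell, open where it did not pass, and the line is the list's median. The pathway lists have medians between -0.49 and 0.18, against 2.12 for mast cell markers and -0.34 for megakaryocyte markers, and the mast cell gene Tpsab1 was not well above background in control samples.

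Markers of neighbouring blood lineages also differed between the groups, where 4.99% of all genes rose and 4.56% fell. With an unadjusted p under 0.05 by limma, 10.5% of all genes were higher and 13.4% lower. Of 11 mast cell markers, 8 were measured, 5 of them rose and 0 fell by limma (0 lower at an unadjusted p under 0.05), with a median of 2.12, while Mcpt8, Fcer1a and Ms4a2 were well above background on no array. Tpsab1, among the 5, was well above background on 3 knockdown arrays and 0 control arrays and so entered the test only through the knockdown. Over the other 7, 4 rose and 0 fell, with a median of 2.05, which was 1.25 with normexp background correction. The summed signal of the list, in units of the array's 75th percentile, was 5.22 to 5.83 in the knockdown and 1.39 to 1.63 in the control. Mast cells carry both Kit and Cd44, and the part of these markers in the Kit and Cd44 values was not tested. Of 12 megakaryocyte markers, 10 were measured, 1 rose and 4 fell, and Ppbp was well above background on no array. Itga2b did not pass but was higher on every knockdown array than on every control array (1.51 ± 0.35, limma adjusted p = 0.0508). Among the calls, Pf4 fell by 1.62 ± 0.14 (adjusted p = 0.00216) and Itgb3 by 1.72 ± 0.17 (adjusted p = 0.0034). The calls of 2 others, Selp (higher) and Gp1ba (lower), were lost with most single samples left out (adjusted p up to 0.132 and 0.0907). The summed signal of that list was 21.6 to 28.9 in the knockdown and 62.7 to 68.0 in the control, and its part in the Runx1 value was not tested. Pf4 and Itgb3 were the brightest measured genes of the list in the control (mean log2 signal 4.87 and 4.37), so they weigh most in that sum.

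The summed signal of markers of other lineages differed less, and the counts below stand beside 4.99% of all genes that rose and 4.56% that fell. Counts at an unadjusted p under 0.05 stand beside 10.5% of all genes higher and 13.4% lower by limma. Of 9 markers of other progenitors, 3 were measured and none passed by limma (0 at an unadjusted p under 0.05), with a summed signal of 0.517 to 0.636 in the knockdown and 0.531 to 0.572 in the control, and Slamf1, Procr and Il7r were well above background on no array. The summed signal of 12 myeloid markers was 161 to 170 in the knockdown and 150 to 189 in the control, with 2 of 9 measured genes higher (Cd68 and Cebpe, both lost without control replicate 2 or 3 or knockdown replicate 2 or 3, adjusted p up to 0.14 and 0.0769) and Mpo, Lyz2 and Cebpa well above background on no array. The summed signal of 7 lymphoid markers was 8.33 to 9.68 in the knockdown and 9.06 to 10.7 in the control, with 0 of 3 measured genes past the threshold by limma and 0 at an unadjusted p under 0.05. The 12 erythroid markers summed to 2210 to 2460 in the knockdown and 1960 to 2070 in the control, and of 11 tested 2 rose and 3 fell. Their part in the member values was not tested.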

How the data were processed

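The authors deposited linear spot intensities, 1 file an array, which Agilent Feature Extraction 10.7.3.1 had background-subtracted, per the file headers, with no normalization between arrays. Feature Extraction and limma are named in the submitters' processing notes, with no settings given in the sources used here. A value table that the authors deposited held the same intensities, on a linear scale, with no centring (column medians of 25.9, 36.93 and 17.83 in knockdown samples and 21.23, 16.95 and 20.92 in control samples). Control spots and outlier-flagged spots were dropped, and repeat spots of a probe were averaged. The deposited flags (0 or 1) for signal well above background filtered the probes (at least 3 of 6 arrays). Signals were taken as log2 minus each array's 75th percentile, and the brightest kept probe by mean over the 6 arrays stood for its gene. Groups were compared with lmFit and eBayes of limma 3.58.1 in R 4.3.3 on all 6 samples without covariates, with Benjamini-Hochberg adjustment over 22133 genes and a threshold of 0.05. Names were updated through RefSeq accessions (27509 of 29150 probes matched, 2017 changed). The script was tested on simulated data. The members and lists were chosen with earlier results of these data known. Named were all members, Chd4, and up to 4 genes past the threshold per list with the largest change, with Gata2, Max, Cbfb, Rnf2 and Kitl whatever their result (1 further gene of this rule is not reported here); other genes named with a value or call were chosen after it was seen. The 3 samples per group limit the precision.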

Additional observations from a re-analysis of the deposited data

How the results depend on the processing

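Of 17 alternatives, the number of members that rose, 1 as reported, was 3 with normexp background correction, 3 with an intensity trend and 3 with array weights, 2 with the filter of all 6 arrays, and 0 with array median scaling, with no detection filter, with the replicate block and in slide row 1 alone. The number that fell, 1 as reported, was 3 with array weights, 2 with the mean over probes, quantile normalization, normexp, the intensity trend and the filter of all 6 arrays, and 0 with array median scaling and in slide row 1 alone. With 1 sample left out, 0 to 1 members rose and 1 to 2 fell. Runx1 passed in 15 alternatives, Cd44 in 9, Bmi1 in 7, Myc in 4, Kit in 3, Meis1 in 1, and Myb and Hhex in 0 (highest adjusted p 0.964 and 0.953). No called change turned its sign. With no filter Cd34 stood at 1.05 (adjusted p = 0.473) and Mycn at -0.05 (adjusted p = 0.949), both on signals not well above background. Over all genes, 1105 rose and 1010 fell as reported, against 502 and 183 with the replicate block, 1415 and 1662 with normexp, 661 and 332 with no filter, 1518 and 1788 with the trend, 2180 and 2549 with array weights, 494 and 226 in slide row 1 alone, 679 and 384 without control replicate 1, 734 and 416 without control replicate 2, 898 and 681 without control replicate 3, 557 and 256 without knockdown replicate 1, 701 and 462 without knockdown replicate 2, and 875 and 635 without knockdown replicate 3. The causes of these shifts were not tested, and the fits with arrays left out also have fewer samples. The labels do not say whether the shared replicate numbers pair the samples. Deviations of same-numbered samples correlated at 0.21, -0.32 and 0.13, and not every sample correlated best with its own number. These deviations were centred within groups of 3 samples, so the correlations cannot exclude a pairing. Same-numbered samples lay in neighbouring columns of the same slide row. With the replicate block the adjusted p was 0.0542 for Cd44 and 0.0427 for Runx1, 1 gene rose and 1 fell in the Kit signalling list, and 1 rose and 0 fell among the other genes that GATA-1 turns down. The median of the 8 mast cell markers was 2.12 as reported and 0.86 with normexp.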

Other observations

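Runx1 belongs to 7 transcription factors that bind together in blood stem cells, with Gata2, Lyl1, Fli1, Lmo2, Tal1 and Erg, a group chosen after its values were seen. Of the 6 measured, 2 rose and 4 fell in the knockdown (limma), where 4.99% of all genes rose and 4.56% fell. Gata2 had a mean log2 signal of 2.43 in the knockdown and 1.21 in the control, and Lyl1 4.34 in the knockdown and 3.72 in the control. Fli1 had 1.43 in the knockdown and 2.36 in the control, and Lmo2, a bridging protein of the complex, 6.80 in the knockdown and 7.29 in the control. Tal1, a basic helix-loop-helix factor, had 4.79 in the knockdown and 5.29 in the control, a change of -0.50 ± 0.11 (SE, adjusted p = 0.0424). For each of the 6 the groups did not overlap, 2 with the knockdown above (12.7% of all genes) and 4 with it below (18.4% of all genes). Because the group was chosen after its values were seen, no conclusion can be drawn from setting its counts against the shares of all genes. Of 17 alternatives, Gata2 passed in 16, Runx1 in 15, Fli1 in 13, Lyl1 in 10, Lmo2 in 7 and Tal1 in 6.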
